A study of Mus musculus with 24 samples.

Results

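The 6 genes described here mark or regulate the dorsal and ventral zones of the mouse olfactory epithelium (OE). They were chosen by symbol from the 45706 genes of the count table: Nqo1 and Acsm4 as dorsal markers, Ncam2 as the ventral marker, and Nfia, Nfib and Nfix as zonal regulators. Bulk RNAseq was made from the whole OE of both nares of untreated WT and iRhom2-/- mice of a mixed strain background (129Sv and C57BL/6), with poly(A) selection and a directional library. The iRhom2-/- mice carry an allele of Rhbdf2 (tm1b) in which LacZ is driven by the endogenous promoter and the first exons are still expressed, and the mice of every group are otherwise unmodified per the labels. There were 3 WT and 3 iRhom2-/- mice at 8 weeks, 3 and 3 at 10 weeks, and 6 and 6 libraries that come from mice of 5 or 30 weeks. The columns of those last 12 libraries name the genotype but not which of both ages, so they are called libraries 7 to 12 of each genotype and age stays mixed within them. The mice of 8 weeks, those of 10 weeks and those of 5 or 30 weeks formed 3 separate sequencing submissions, so stratum and submission cannot be told apart. At 8 weeks WT mouse 3 was female and the 3 iRhom2-/- mice were male, whereas at 10 weeks mouse 3 of each genotype was female, and all mice of 5 or 30 weeks were male.

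Each olfactory sensory neuron (OSN) expresses 1 odorant receptor (OR), and which receptor it can choose depends on the position of the neuron along the dorsal to ventral axis of the OE. Dorsal OSNs choose class I ORs, trace amine-associated receptors and a part of the class II ORs, and they are known to express Nqo1, a quinone reductase that is also a classic target of the antioxidant factor NRF2. Acsm4, a medium-chain acyl-CoA synthetase of the OE, is likewise restricted to the dorsal zone, while the adhesion molecule Ncam2 (OCAM) is found on the axons of ventral OSNs. The nuclear factor I proteins NFIA, NFIB and NFIX are transcription factors that rise toward the ventral OE and take part in setting which receptors are used in which zone. Because bulk RNAseq averages over all cells, fewer cells of a zone and less RNA per cell cannot be told apart in these values.

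To show what the zone markers look like at their start sites, the 250 bases before the RefSeq start of the 3 position markers are given below, since NFI factors and NRF2 are the regulators most often named for them. RefSeq (GRCm38.p6) held such a window for 5 of the 6 genes, with none given for Nfib. Capitals mark the short NFI motif TTGGC on either strand (GCCAA on the strand shown). The windows are those of Nqo1 at chr8:107403206-107403455 on the minus strand, Acsm4 at chr7:119689776-119690025 on the plus strand and Ncam2 at chr16:81200447-81200696 on the plus strand.
Nqo1: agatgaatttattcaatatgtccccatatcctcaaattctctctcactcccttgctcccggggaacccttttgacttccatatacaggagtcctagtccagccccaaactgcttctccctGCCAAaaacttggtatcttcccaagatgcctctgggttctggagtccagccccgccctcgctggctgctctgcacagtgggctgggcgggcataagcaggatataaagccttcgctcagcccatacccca
Acsm4: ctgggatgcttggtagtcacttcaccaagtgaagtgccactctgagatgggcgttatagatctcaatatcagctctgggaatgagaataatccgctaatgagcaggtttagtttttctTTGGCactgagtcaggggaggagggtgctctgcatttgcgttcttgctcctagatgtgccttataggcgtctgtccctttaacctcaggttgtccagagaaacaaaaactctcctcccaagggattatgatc
Ncam2: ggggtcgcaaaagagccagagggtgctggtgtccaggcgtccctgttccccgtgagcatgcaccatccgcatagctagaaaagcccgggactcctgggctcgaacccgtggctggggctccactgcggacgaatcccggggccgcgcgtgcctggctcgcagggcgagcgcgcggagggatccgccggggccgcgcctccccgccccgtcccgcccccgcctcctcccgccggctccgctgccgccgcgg
Both dorsal markers held 1 match, at -130 from the start in Nqo1 and at -132 in Acsm4, and the Ncam2 window held none. This motif is found in 41.5% of the 32851 promoter windows of the same length, so its presence sets neither gene apart. The full palindrome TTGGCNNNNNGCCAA, which holds the short motif on each strand, was in none of the 3 windows and in 0.0365% of all windows. The core of the antioxidant response element, TGACNNNGC on either strand, was in none of the 3 and in 10.2% of all windows. Sequence farther upstream than these 250 bases was not searched, so an element there would have been missed. These matches describe letters only and not binding.

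Rhbdf2, which encodes iRhom2, was examined first as a check of the labels. It lay between 19.3 and 24.9 CPM (counts per 1000000 of the library, TMM-normalized) in the 12 WT libraries and between 7.19 and 13.4 CPM in the 12 iRhom2-/- libraries, without overlap. Its log2 fold change over all mice was -1.08 (SE 0.085, adjusted p = 9.84e-08, from the quasi-likelihood test of edgeR with p adjusted after Benjamini-Hochberg over all genes tested), so every library matched its genotype. Library totals ranged from 25333822 to 48660394 counts, and each of the 6 zone genes had at least 866 counts in every library. For these 6 genes by themselves, counting error was not compared with the spread between mice. All 6 passed the filter on low counts in each comparison. The libraries contained OSN RNA throughout, with Omp, the marker of mature OSNs, at 3691 to 8333 CPM. One library stood apart for the zone genes: iRhom2-/- library 10 of the mice of 5 or 30 weeks had the highest Nqo1 and the lowest Nfix of its group, and the values that it moved most are given with and without it. That library was singled out by these same values. The p-values given without it are therefore not independent tests and show only how far a result rests on it. Another library, iRhom2-/- mouse 2 of 10 weeks, had the lowest TMM factor (0.785).

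Set per kilobase of exon (GENCODE annotation of GRCm38), Acsm4 was the most abundant of the 6 genes, at 302 ± 86.3 CPM per kb (SD, n = 24). Nqo1 followed at 94.0 ± 34.1 and Nfix at 21.04 ± 2.99, then Nfib at 9.91 ± 1.43, Ncam2 at 4.15 ± 0.926 and Nfia at 3.98 ± 0.524 CPM per kb. The ranges of Ncam2 (2.83 to 6.61) and Nfia (3.13 to 4.85) overlapped almost fully, so their order is not resolved, and those of Acsm4 (from 165) and Nqo1 (up to 169) touched. The dorsal markers varied most between libraries. Their highest value was 3.66 times the lowest for Nqo1 and 2.88 times for Acsm4, against 2.33 for Ncam2 and 1.55, 1.64 and 1.74 for Nfia, Nfib and Nfix.

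**Figure D1:**
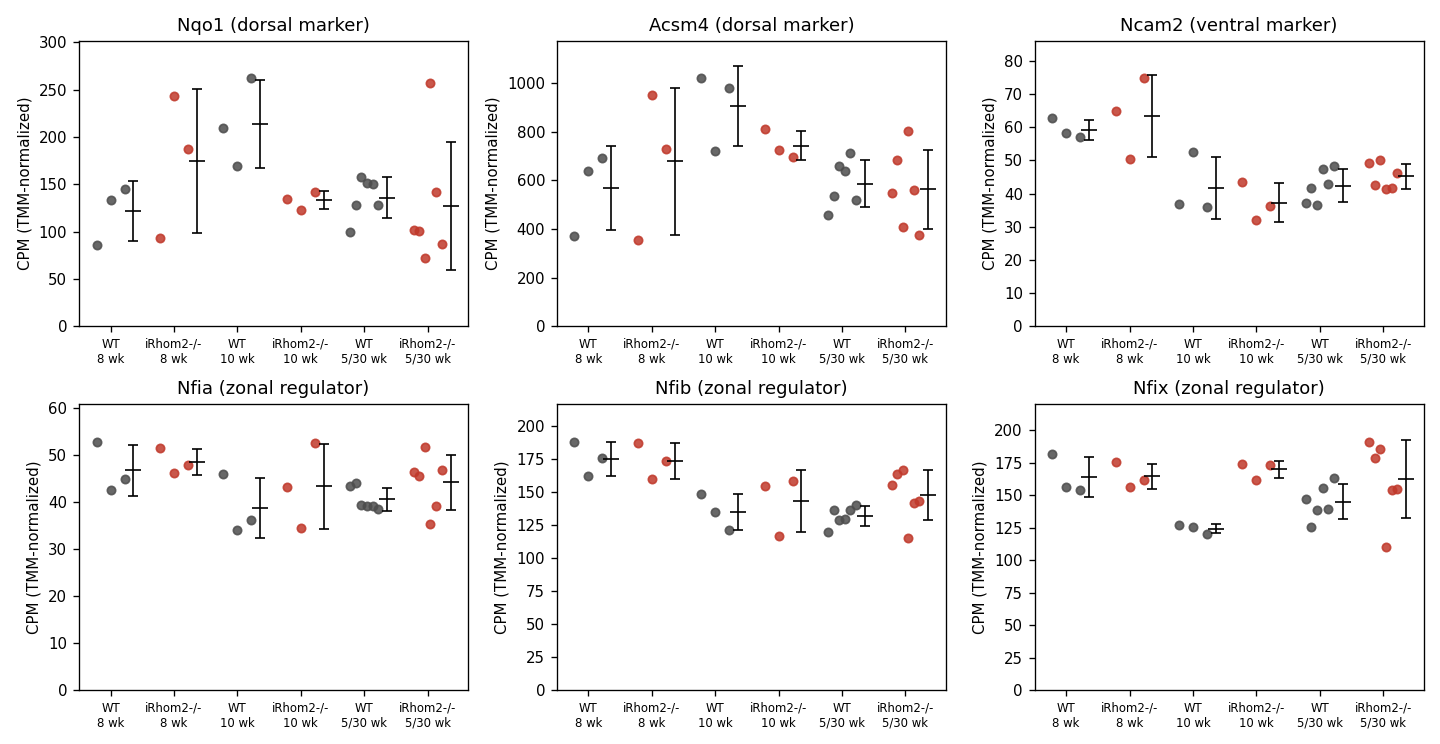
CPM (y axis, TMM-normalized, from 0) of each zone gene in every library (points) of the 6 groups, with the mean ± SD in black. At 10 weeks the iRhom2-/- points of Nqo1 lie below all WT points and those of Nfix above them, whereas in the other strata the genotypes overlap for all 6 genes.

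The first question was whether the loss of iRhom2 shifted the zone genes at a given age. None of the 6 passed the threshold (adjusted p under 0.1, edgeR) in any comparison. At 8 weeks, 0 of 6 were called beside 4.98% of the 19335 genes tested, and at 10 weeks 0 of 6 beside 0.197% of 18764. In the libraries of 5 or 30 weeks it was 0 of 6 beside 1.07% of 18481, and over all mice, with age stratum as a term, 0 of 6 beside 2.13% of 20131. At an unadjusted p under 0.05, 0, 2, 0 and 1 of the 6 were found in these comparisons, namely Nqo1 and Nfix at 10 weeks and Nfix over all mice, beside 19.8%, 7.79%, 14.2% and 12.5% of all genes tested. DESeq2 called 0, 2, 0 and 0, again Nqo1 and Nfix at 10 weeks, beside 11.9%, 1.54%, 5.49% and 4.1% of the genes for which it gave an adjusted p. No zone gene had a genotype difference that itself differed between the strata by edgeR's interaction test (0 of 6, beside 0.0482% of 20763 genes), where the smallest values were those of Nqo1 (unadjusted p = 0.0812, adjusted p = 0.446) and Nfix (unadjusted p = 0.0917, adjusted p = 0.459).

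**Figure D2:**
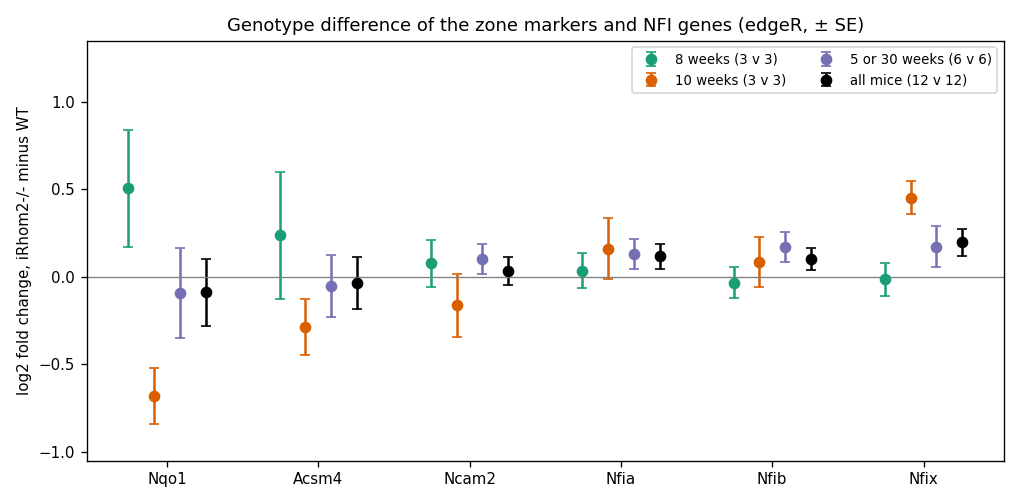
Log2 fold change of iRhom2-/- against WT (y axis, edgeR, bars ± SE) for each zone gene at 8 weeks, at 10 weeks, at 5 or 30 weeks and over all mice. The point farthest below 0 is Nqo1 at 10 weeks (-0.68), and Nfix at 10 weeks (0.45) is the highest point with a short bar.

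Nqo1 at 10 weeks was at 209.7, 169 and 262 CPM in WT mice 1 to 3 and at 135, 123 and 142 CPM in iRhom2-/- mice 1 to 3. The iRhom2-/- mice were all lower and lay closer together than the WT mice. The log2 fold change was -0.68 (SE 0.16, unadjusted p = 0.00276, adjusted p = 0.354, edgeR), and it stayed between -0.82 and -0.52 when each mouse was left out in turn. DESeq2 gave -0.69 with an adjusted p of 0.0067, so the call for Nqo1 depends on the test. At 8 weeks the order was the other way, with 85.6, 133 and 146 CPM in WT and 93.3, 243 and 188 CPM in iRhom2-/- mice. The groups overlapped there through iRhom2-/- mouse 1, and mouse 1 was the lowest of each genotype (log2 fold change 0.51, SE 0.34, adjusted p = 0.437, edgeR, and 0.19 to 0.79 with each mouse left out in turn). In the libraries of 5 or 30 weeks, WT spanned 99.6 to 157 CPM (median 139) and iRhom2-/- 71.6 to 257 (median 101). The highest iRhom2-/- value was library 10. The log2 fold change of Nqo1 was -0.092 with that library (SE 0.26, adjusted p = 0.915, edgeR) and -0.42 without it (unadjusted p = 0.0223, adjusted p = 0.272, edgeR). Over all mice it was -0.089 (SE 0.19, adjusted p = 0.908, edgeR), with 8 of 12 iRhom2-/- libraries below the WT mean of their stratum, and -0.25 without library 10 (adjusted p = 0.628, edgeR).

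Acsm4, the second dorsal marker, was at 1021, 718 and 980.2 CPM in WT and 809, 723 and 696 CPM in iRhom2-/- mice of 10 weeks. All 3 iRhom2-/- mice were below the WT mean, but WT mouse 2 lay among them (log2 fold change -0.29, SE 0.16, adjusted p = 0.761, edgeR). At 8 weeks Acsm4 was at 372, 639.6 and 692 CPM in WT and 354, 948 and 730.3 CPM in iRhom2-/- mice, where mouse 1 of each genotype was again the low one (0.24, SE 0.36, adjusted p = 0.752, edgeR). The libraries of 5 or 30 weeks spanned 456 to 712 CPM in WT (median 587) and 376 to 802 in iRhom2-/- (median 554). The range was wider in iRhom2-/- on both sides, and the log2 fold change was -0.053 (SE 0.17, adjusted p = 0.930, edgeR), or -0.18 without library 10 (adjusted p = 0.653, edgeR). Over all mice Acsm4 gave -0.037 (SE 0.15, adjusted p = 0.956, edgeR).

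Ncam2, the ventral marker, was at 62.7, 58.2 and 57.0 CPM in WT and 64.8, 50.5 and 74.9 CPM in iRhom2-/- mice of 8 weeks. The iRhom2-/- mice lay on both sides of the WT mice (0.077, SE 0.13, adjusted p = 0.785, edgeR). At 10 weeks Ncam2 was at 36.7, 52.5 and 35.9 CPM in WT and 43.5, 32.1 and 36.2 CPM in iRhom2-/- mice, again mixed (-0.16, SE 0.18, adjusted p = 0.896, edgeR). In the libraries of 5 or 30 weeks it spanned 36.6 to 48.4 CPM in WT (median 42.2) and 41.3 to 49.99 in iRhom2-/- (median 44.3), with a log2 fold change of 0.10 (SE 0.088, adjusted p = 0.645, edgeR). Over all mice the log2 fold change of Ncam2 was 0.032 (SE 0.079, adjusted p = 0.919, edgeR). By level, the WT mice of 8 weeks were above every WT library of the other ages for Ncam2, and the same held for Nfib. This was not tested, since each stratum was a sequencing submission of its own.

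Among the NFI genes, Nfix at 10 weeks was at 127, 126 and 120.1 CPM in WT and 174, 162 and 174 CPM in iRhom2-/- mice. All 3 iRhom2-/- mice were higher, and both groups were tight. The log2 fold change was 0.45 (SE 0.095, unadjusted p = 0.00143, adjusted p = 0.276, edgeR), between 0.42 and 0.47 with each mouse left out in turn, and DESeq2 gave 0.45 with an adjusted p of 0.00144. Nqo1 and Nfix were thus the 2 of 6 zone genes whose genotypes did not overlap at 10 weeks, beside 13.2% of all genes tested. At 8 weeks 0 of 6 did so beside 26.7%, and in the libraries of 5 or 30 weeks 0 of 6 beside 1.66%. Nfix did not differ at 8 weeks beyond the spread, with 182, 156 and 154 CPM in WT and 175, 156 and 162 CPM in iRhom2-/- mice (-0.015, SE 0.093, adjusted p = 0.947, edgeR). In the libraries of 5 or 30 weeks it spanned 125 to 163 CPM in WT (median 143) and 110.1 to 191 in iRhom2-/- (median 166), where 5 of 6 iRhom2-/- libraries were above the WT mean and library 10 was far below it. The log2 fold change was 0.17 (SE 0.12, adjusted p = 0.552, edgeR), and 0.26 without library 10 (unadjusted p = 0.00828, adjusted p = 0.196, edgeR). Over all mice Nfix was higher in 9 of 12 iRhom2-/- libraries than the WT mean of their stratum (0.20, SE 0.077, unadjusted p = 0.0173, adjusted p = 0.261, edgeR). Without library 10 the log2 fold change over all mice was 0.24 with an adjusted p of 0.0609 (edgeR), the 1 edgeR fit in which a zone gene passed. Library 10 had been singled out by its low Nfix among other values, so this pass is not an independent test.

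Nfia and Nfib showed smaller differences. Nfia was at 34.1 to 46.0 CPM in WT and 34.4 to 52.5 in iRhom2-/- mice of 10 weeks, and Nfib at 121 to 148 in WT and 117 to 158 in iRhom2-/- mice, so that the genotypes overlapped for both. Over all mice the log2 fold change was 0.12 for Nfia (SE 0.070, adjusted p = 0.531, edgeR) and 0.10 for Nfib (SE 0.064, adjusted p = 0.571, edgeR), with 8 of 12 iRhom2-/- libraries above the WT mean of their stratum for each. In the libraries of 5 or 30 weeks, 4 of 6 iRhom2-/- libraries were above the WT mean for Nfia and 5 of 6 for Nfib. The lowest iRhom2-/- values there, 35.3 CPM of Nfia and 115 CPM of Nfib, were again those of library 10.

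Markers of other cell types also had different means in the genotypes at 10 weeks, where Nqo1 and Nfix did not overlap. The 5 ensheathing glia markers all had a lower mean in iRhom2-/- mice (median log2 fold change -0.50), with a summed level of 252 to 330.2 CPM in iRhom2-/- against 346.5 to 454 in WT. The 4 horizontal basal cell markers were all higher (median 0.28), at 155 to 169 against 118.5 to 129 CPM. The 6 ciliated respiratory markers were all higher too (median 0.46), but their summed levels overlapped (251 to 465.8 against 209 to 310.2 CPM). The 5 stromal fibroblast markers were higher as well (median 0.43), at 4299 to 5783 against 2938 to 3433 CPM without overlap. So were the 4 erythrocyte markers (median 1.17), whose sums overlapped because 1 iRhom2-/- mouse reached 3617 CPM and the lowest was at 332 (345.5 to 854.5 in WT). All 6 immature OSN markers (median 0.16) and all 6 macrophage markers (median 0.15) had a higher mean with overlapping sums, as had 5 of 6 globose basal cell markers (median 0.25), whose sums of 106 to 126 against 83.7 to 97.4 CPM did not overlap. Of 9 mature OSN markers, 8 were lower (median -0.19), as were 4 of 5 sustentacular cell markers (median -0.17) and 3 of 3 Bowman gland markers (median -0.15), while the median over all genes was 0.0068. None of these markers passed the threshold at 10 weeks, and their part in the values of Nqo1 and Nfix was not tested.

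To compare zones within a mouse, each dorsal marker was divided by Ncam2. The ratio of Nqo1 to Ncam2 at 10 weeks was 5.71, 3.22 and 7.31 in WT mice and 3.10, 3.82 and 3.91 in iRhom2-/- mice. WT mouse 2 fell among the iRhom2-/- mice, so the groups overlapped. The mean log2 ratio differed by -0.51 (SE 0.37, two-sided exact permutation test, p = 0.3, where 3 against 3 mice cannot go below 0.1). At 8 weeks the ratio was 1.37, 2.29 and 2.55 in WT and 1.44, 4.81 and 2.51 in iRhom2-/- mice, a log2 difference of 0.37 (SE 0.57, exact permutation p = 0.5). Without iRhom2-/- mouse 2 of 8 weeks this became -0.073. In the libraries of 5 or 30 weeks the ratio spanned 2.65 to 4.29 in WT (median 3.13) and 1.43 to 6.22 in iRhom2-/- (median 2.22), with 4 of 6 iRhom2-/- libraries below the WT mean. The log2 difference was -0.31 (SE 0.32, exact permutation p = 0.361). Without iRhom2-/- library 10, the one at 6.22, it was -0.57 (exact permutation p = 0.026, not adjusted). That library was left out because of its own high Nqo1, so this p tends to be too small. Over all mice, with labels permuted within strata, the difference was -0.19 (SE 0.23, exact permutation p = 0.422), and it was -0.31 without library 10 (exact permutation p = 0.164).

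**Figure D3:**
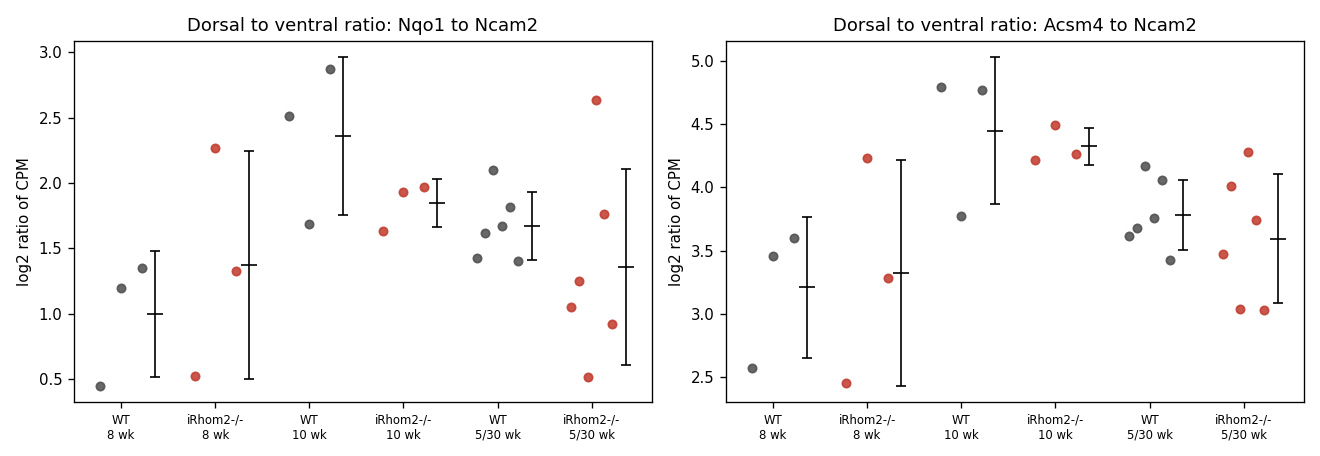
Log2 ratio (y axis) of Nqo1 to Ncam2 (left) and of Acsm4 to Ncam2 (right) in every library (points) of the 6 groups, with the mean ± SD in black. The genotypes overlap in each stratum, and iRhom2-/- library 10 is the highest point of the last group in both panels.

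The ratio of Acsm4 to Ncam2 gave the same picture with smaller differences. It was 27.8, 13.7 and 27.3 in WT and 18.6, 22.5 and 19.2 in iRhom2-/- mice of 10 weeks, where the iRhom2-/- mice lay between the WT mice. The log2 difference was 0.11 at 8 weeks (SE 0.61, exact permutation p = 1) and -0.12 at 10 weeks (SE 0.35, exact permutation p = 0.8). It was -0.19 at 5 or 30 weeks (SE 0.24, exact permutation p = 0.437) and -0.097 over all mice (SE 0.21, exact permutation p = 0.631).

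Receptors known to be used in dorsal OSNs gave a readout of the zone that the choice of genes did not use. The 111 class I ORs (symbols Olfr543 to Olfr691) summed to 152, 154 and 204 CPM in WT and 147, 128 and 95.4 CPM in iRhom2-/- mice 1 to 3 of 10 weeks. The 14 trace amine-associated receptors summed to between 15.6 and 21.7 CPM in WT and between 8.58 and 13.8 CPM in iRhom2-/- mice. Both sums were lower in all 3 iRhom2-/- mice of 10 weeks, as Nqo1 was, by -0.47 on the log2 scale for class I (SE 0.23) and -0.71 for the trace amine-associated receptors (SE 0.26). The exact permutation p was 0.1 for each, the smallest that 3 against 3 allows. Adjusted over the 16 tests of ratios and receptor sums, it was 0.8. At 8 weeks both sums were higher on average in iRhom2-/- mice (0.62 and 0.31, exact permutation p = 0.4 and p = 0.5), with 0.24 to 1.04 and 0.081 to 0.67 when each mouse was left out in turn. Mature OSN markers went the same way as the sums at both ages. Of these 9 markers, 8 were higher at 8 weeks (median log2 fold change 0.49, beside -0.0013 over all genes) and 8 were lower at 10 weeks (median -0.19). The sums were not set relative to mature OSN RNA, and its part in them was not tested. Over all mice the log2 difference was 0.064 for class I (SE 0.21, exact permutation p = 0.768, and -0.026 without library 10) and -0.14 for the trace amine-associated receptors (SE 0.15, exact permutation p = 0.420). Whether these differences differ between 8 and 10 weeks was not tested for the sums.

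The second question was whether the zone genes vary together between mice of one group. The mean of the group was taken from each log2 CPM value, and all 15 pairs of zone genes were compared over the 24 libraries with permutations within groups. Of the 15, 10 passed after Benjamini-Hochberg adjustment over the 15 pairs (adjusted permutation p under 0.05), 6 positive and 4 negative. The positive ones lay within the dorsal pair, within the NFI genes and between Ncam2 and 2 NFI genes, and the negative ones lay between a dorsal marker and an NFI gene. This count rested in part on iRhom2-/- library 10: without it 3 of 15 passed, namely Nqo1 with Acsm4, Nfia with Nfib, and Nfib with Nfix. Without WT mouse 1 of 8 weeks it was 6. In the 12 mice of 8 and 10 weeks alone, where age is not mixed within a group, it was 4, the same 3 pairs and Nfia with Nfix.

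**Figure D4:**
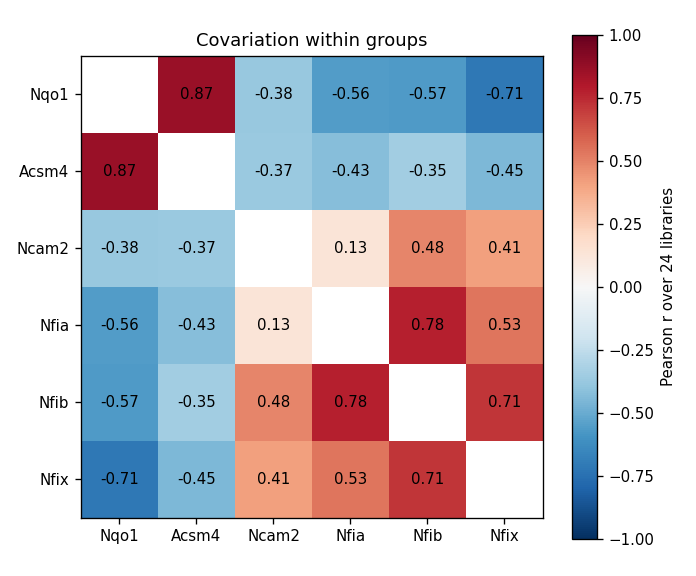
Pearson r of each pair of zone genes over 24 libraries after removing group means (color scale from -1 to 1, values in the cells). The 2 dorsal markers are positively related (0.87), as are the 3 NFI genes, and all 6 values between a dorsal marker and an NFI gene are negative.

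Nqo1 and Acsm4 were the closest pair, with a Pearson r of 0.87 (adjusted permutation p = 0.0012) and a Spearman rho of 0.79 (adjusted permutation p = 0.0084). Within strata r was 0.998 at 8 weeks, 0.69 at 10 weeks and 0.81 at 5 or 30 weeks, and it was 0.84 without the 2 libraries farthest from the median of Nqo1. Leaving out each library in turn gave 0.82 to 0.91, and the pair passed in 24 of 24 such fits. It was 0.93 in WT and 0.85 in iRhom2-/- libraries, a difference that was not tested. Nqo1 and Ncam2, the dorsal and the ventral marker, gave r = -0.38 (adjusted permutation p = 0.129) and rho = -0.39 (adjusted permutation p = 0.112), which did not pass.

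Nfia and Nfib had r = 0.78 (adjusted permutation p = 0.00525, rho = 0.68 with an adjusted permutation p of 0.0183), and r was 0.90, 0.86 and 0.69 in the 3 strata in order of 8, 10 and 5 or 30 weeks. Nfib and Nfix had r = 0.715 (adjusted permutation p = 0.0048, rho = 0.69 with an adjusted permutation p of 0.0084), with 0.84, 0.98 and 0.81 in the strata. Without the 2 libraries farthest on the first gene, r was 0.75 for Nfia with Nfib and 0.56 for Nfib with Nfix. Both pairs passed in 24 of 24 fits that left out a library. Nfia and Nfix had r = 0.53 (adjusted permutation p = 0.0213, rho = 0.48 with an adjusted permutation p of 0.0459), with 0.95, 0.74 and 0.62 in the strata and 0.59 without the 2 farthest libraries. Leaving out iRhom2-/- library 10 reduced it to 0.33, and the pair passed in 22 of 24 fits that left out a library. Ncam2 was related to Nfib (r = 0.48, adjusted permutation p = 0.0453) and to Nfix (r = 0.41, adjusted permutation p = 0.0192), but not past the threshold to Nfia (r = 0.13, adjusted permutation p = 0.617). The rho values for Ncam2 were 0.51 with Nfib and 0.54 with Nfix (adjusted permutation p = 0.0459 and p = 0.0183), and r was 0.51 and 0.45 without the 2 farthest libraries. In the strata r was 0.58, 0.42 and 0.54 for Ncam2 with Nfib and 0.43, 0.57 and 0.55 for Ncam2 with Nfix. With each library left out in turn, Ncam2 with Nfix passed in 23 of 24 fits, and Ncam2 with Nfib in 7 of 24.

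Nqo1 ran opposite to each NFI gene. Its r was -0.71 with Nfix (adjusted permutation p = 0.0123, rho = -0.59), -0.57 with Nfib (adjusted permutation p = 0.0217, rho = -0.51) and -0.56 with Nfia (adjusted permutation p = 0.0123, rho = -0.56), where the adjusted permutation p of rho was 0.0212, 0.0459 and 0.0212. By stratum, r was -0.89, -0.86 and -0.79 for Nfix, Nfib and Nfia at 8 weeks and -0.75, -0.72 and -0.94 at 5 or 30 weeks. At 10 weeks it was -0.18, -0.0031 and 0.35. With 3 mice of each genotype at 8 and at 10 weeks, r within these strata is imprecise, and the difference between strata was not tested. Without the 2 libraries farthest on Nqo1 the values were -0.52, -0.33 and -0.43, and without iRhom2-/- library 10 they were -0.46, -0.32 and -0.40, none of which passed (adjusted permutation p = 0.111, p = 0.194 and p = 0.0972). Scaled by library totals in place of TMM they were -0.59, -0.32 and -0.37 and did not pass either. With each library left out in turn, Nqo1 passed with Nfix in 23 of 24 fits, with Nfib in 20 and with Nfia in 23. The negative relation of Nqo1 to the NFI genes therefore rests partly on 1 library and on the scaling. Acsm4 passed with Nfia alone (r = -0.43, adjusted permutation p = 0.0396, rho = -0.43 with an adjusted permutation p of 0.0607), with -0.83, 0.34 and -0.71 in the strata and -0.37 without the 2 farthest libraries, and it passed in 13 of 24 fits that left out a library.

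**Figure D5:**
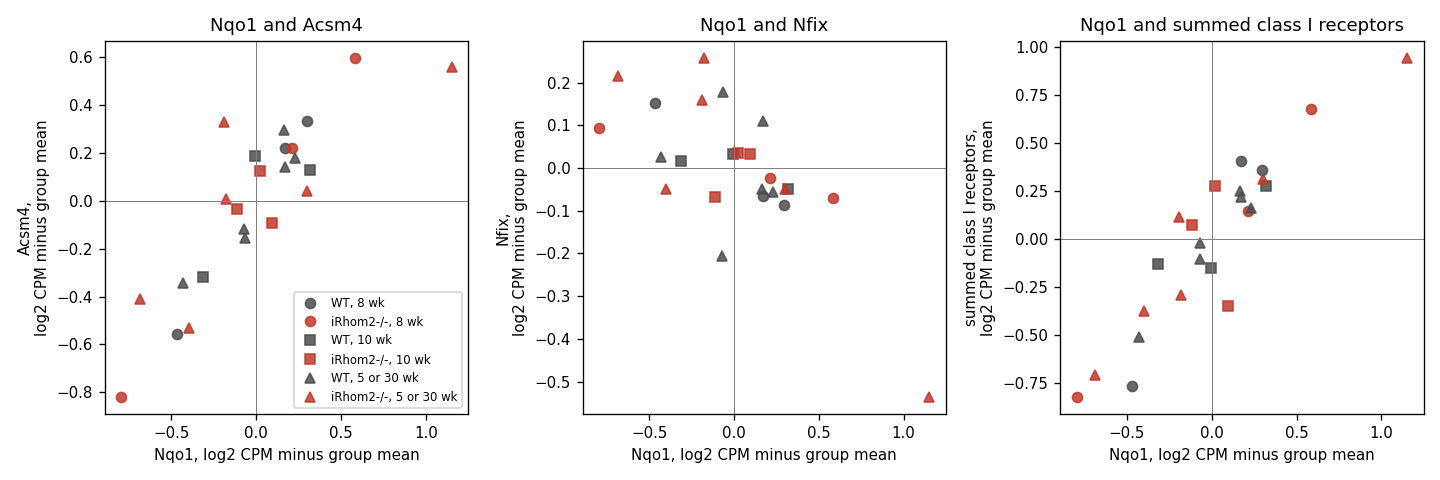
Log2 CPM minus the group mean in each library for Nqo1 (x axes) against Acsm4, Nfix and the summed class I receptors (y axes), colored by genotype with a symbol for each stratum. Nqo1 rises with Acsm4 and the class I sum and falls with Nfix, and the point at the far right of each panel is iRhom2-/- library 10.

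The zone genes were then set against the summed receptors and markers of 11 cell types in the same way, a family of 78 relations that was added after the data had been seen and of which 14 passed. The class I sum rose with Nqo1 (r = 0.92, adjusted permutation p = 0.00078, rho = 0.89 with an adjusted permutation p of 0.00234) and with Acsm4 (r = 0.90, adjusted permutation p = 0.00078, rho = 0.84 with an adjusted permutation p of 0.00702). These were r = 0.97 and 0.98 at 8 weeks, 0.36 and 0.47 at 10 weeks, and 0.96 and 0.88 at 5 or 30 weeks, and 0.89 and 0.86 without the 2 farthest libraries. Without iRhom2-/- library 10 they were 0.91 and 0.89 and still passed (adjusted permutation p = 0.00351 for each). The trace amine-associated receptors rose with Acsm4 (r = 0.80, adjusted permutation p = 0.00608, rho = 0.74 with an adjusted permutation p of 0.0186, and 0.996, -0.013 and 0.81 in the strata). Without the 2 libraries farthest on Acsm4 that r was 0.71, and it was 0.77 without iRhom2-/- library 10 (adjusted permutation p = 0.0236). With Nqo1 they had r = 0.67 (adjusted permutation p = 0.0454, rho = 0.61 with an adjusted permutation p of 0.0731), which was 0.997, -0.11 and 0.60 in the strata and 0.52 without the 2 farthest libraries. Without library 10 it was 0.62 and did not pass (adjusted permutation p = 0.128). Thus r of both receptor sums with the dorsal markers was lowest at 10 weeks, a difference between strata that was not tested.

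The NFI genes fell as the class I sum rose. For Nfia r was -0.70 (adjusted permutation p = 0.0026, rho = -0.71 with an adjusted permutation p of 0.00884), with -0.91, -0.54 and -0.90 in the strata, -0.73 without the 2 farthest libraries and -0.61 without iRhom2-/- library 10 (adjusted permutation p = 0.0224). For Nfix it was -0.66 (adjusted permutation p = 0.0276, rho = -0.63 with an adjusted permutation p of 0.051), with -0.95, -0.46 and -0.70 in the strata and -0.54 without the 2 farthest libraries. For Nfib it was -0.57 (adjusted permutation p = 0.0454, rho = -0.53 with an adjusted permutation p of 0.0955), with -0.93, -0.47 and -0.59 in the strata and -0.48 without the 2 farthest libraries. Of these, Nfix and Nfib did not pass without library 10 (adjusted permutation p = 0.129 and p = 0.195). Nfia also fell as the trace amine-associated receptors rose (r = -0.62, adjusted permutation p = 0.0223, rho = -0.64 with an adjusted permutation p of 0.0322), with -0.80, -0.89 and -0.48 in the strata and -0.56 without the 2 farthest libraries. Without library 10 that r was -0.56 and did not pass (adjusted permutation p = 0.0608). Ncam2 showed no such relation to the class I sum past the threshold (r = -0.32, adjusted permutation p = 0.337, rho = -0.33). Of the 78 relations 6 passed without library 10 and 0 in the 12 mice of 8 and 10 weeks alone, where Nqo1 and the class I sum had r = 0.89 (adjusted permutation p = 0.126).

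Among 16314 other genes with a mean of at least 1 CPM, those whose variation within groups was most like that of each zone gene are given as a description. For Nqo1 they were the odorant receptors Olfr52 (r = 0.93) and Olfr1042 (0.92), both near 1 to 2 CPM, and the transporter-like gene Svopl (0.92). For Acsm4 they were Fmo6 (0.97), Slc25a35 (0.97) and Sult1c1 (0.94). Fmo6 belongs to the flavin monooxygenases, Slc25a35 to the mitochondrial carriers and Sult1c1 to the sulfotransferases, and in the strata Fmo6 stayed at 0.91 or above. Ncam2 was most like Prrc2c (0.87), the zinc finger homeobox gene Zfhx4 (0.86) and Zfp111 (0.85). The genes most like Nfia were Cpne1 (0.84), Pmepa1 (0.83) and Gm37376 (0.81), those most like Nfib were the transcription factor gene Tcf4 (0.89), Zc3h7a (0.84) and Olfr1509 (0.83), and those most like Nfix were Sorbs3 (0.88), Olfr1281 (0.88) and Olfr329 (0.87).

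Genes of related pathways were also followed. Of 5 genes of zonal axon guidance (Robo2, Slit1, Nrp2, Sema3f and Plxna3), which sort dorsal and ventral axons, 0 were called in any of the comparisons. All 5 had a positive log2 fold change over all mice, with a median of 0.17 beside 0.0017 over all genes. By stratum, 3 of 5 were positive at 8 weeks (median 0.14), 3 of 5 at 10 weeks (median 0.038) and 5 of 5 at 5 or 30 weeks (median 0.23). Robo2, the Slit receptor of dorsal axons, gave 0.19 (SE 0.077, unadjusted p = 0.022, adjusted p = 0.289, edgeR), and Nrp2, the Sema3f receptor of ventral axons, gave 0.20 (SE 0.085, unadjusted p = 0.0253, adjusted p = 0.305, edgeR). Of 7 relatives of the zone genes 5 were tested, and 1 was called. Ncam1, the paralog of Ncam2 on all OSN axons, rose in iRhom2-/- at 5 or 30 weeks (log2 fold change 0.31, SE 0.073, adjusted p = 0.0909, edgeR), while it was 0.29 at 8 weeks (SE 0.086, unadjusted p = 0.0113, adjusted p = 0.134, edgeR), 0.0045 at 10 weeks and 0.23 over all mice (adjusted p = 0.121, edgeR). Nfic, the fourth NFI gene, gave 0.075 over all mice (adjusted p = 0.671, edgeR). Of 11 further NRF2 targets 0 were called at any age, and at 10 weeks, where Nqo1 was lowest against WT, their median was -0.053, with 6 of 11 negative. Me1 had the lowest log2 fold change of these at 10 weeks (-0.37, SE 0.11, unadjusted p = 0.00798, adjusted p = 0.437, edgeR), and Hmox1 was at 0.19 (adjusted p = 0.739, edgeR).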

How the data were processed

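Per the labels and the methods of the study, the authors aligned reads with STAR to GRCm38 and made the deposited table with RSEM, as an estimated count per gene without normalization. The deposited estimated counts are whole numbers for 45706 genes and 24 libraries. It also holds the authors' own log2 fold change, mean level, likelihood ratio, p-value and FDR, which were not used. The library kit marks strand, and the strand setting of the counting is not given in the sources used here.

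The whole table was fitted with edgeR 4.0.16 in R 4.3.3 (filterByExpr, TMM, quasi-likelihood test, Benjamini-Hochberg adjustment over all genes tested, thresholds 0.1 and 0.05), for each stratum and for all mice with stratum as a term. DESeq2 1.42.0 was an alternative. Ratios and receptor sums were compared by exact permutation of genotype labels within strata, and relations between genes by 100000 permutations within groups (Python 3.11.15). Medians of groups over 5 libraries, SD and SE are as stated. The fits were tested on simulated data. The 42 pairs of libraries within groups differed beyond sampling noise (lowest chi-square, divided by its degrees of freedom, 12.8), so all libraries were counted once. A library is 1 mouse per the labels, so p-values measure the spread between mice. No count of a gene described was at or near 0.

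The genes described and the lists were chosen with earlier results of these data known. Genes named besides the 6 are Rhbdf2, Omp, list genes past the threshold, up to 2 others per list, and the 3 genes most like each of the 6 by r. Exceptions, chosen after their values were seen, are Nfic, Hmox1 and Me1. Cell type lists are described by counts and medians.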

Additional observations from a re-analysis of the deposited data

How the results depend on the processing

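No zone gene was called under any alternative except Nqo1 and Nfix with DESeq2 at 10 weeks (2 called) and Nfix over all mice without iRhom2-/- library 10 (1 called), and the cause was not tested. The number of all genes called varied more. At 8 weeks 962 became 393 with library totals, 2195 with DESeq2, 270 at the 0.05 threshold, 404 in one fit of all libraries, 106 with sex as a term and 132 in males. At 10 weeks 37 became 289 with DESeq2 and 58 with no filter. At 5 or 30 weeks 198 became 344 with library totals, 916 with DESeq2, 119 with no filter and 51 at 0.05. Over all mice 428 became 823 with DESeq2, 247 at 0.05, 260 in males, 96 with no stratum term and 114 in the 12 mice of 8 and 10 weeks. The interaction gave 3 at 0.05. Leaving out 1 library gave 68 to 1300, 13 to 105, 52 to 241 and 297 to 720 for these 4 comparisons and 0 to 204 for the interaction. Labels of 8 and 10 weeks share replicate numbers, and same-numbered mice of the 2 genotypes correlated by 0.0037 to 0.22. The highest r of a WT mouse with an other-numbered iRhom2-/- mouse was between -0.050 and 0.15, so the ranges overlapped. No pairing was used in the main fits. With the replicate block, 1399 genes were called at 8 weeks, 43 at 10 weeks and 41 over those 12 mice, with 0 zone genes each time. Nqo1 at 8 weeks then had a log2 fold change of 0.44 (unadjusted p = 0.022, adjusted p = 0.166, edgeR).

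Values near 0 changed sign. At 8 weeks these were Nfib 0.015 and Nfix 0.035 (library totals), Nfix 0.0035 (one fit) and Nfia -0.0057 (sex) and -3.9e-04 (males). At 10 weeks in males they were Nfia -0.053 and Nfib -0.073. Over all mice they were Acsm4 0.025 (males) and Ncam2 -0.038 (12 mice of 8 and 10 weeks) and -0.037 (replicate block). The ratio of Acsm4 to Ncam2 became -0.17 at 8 weeks by medians and 0.071 at 10 weeks in males, and the class I sum became -0.11 at 5 or 30 weeks and -0.018 over all mice by medians. With 1 library left out, the log2 fold change at 8 weeks ranged from -0.090 to 0.53 for Acsm4, -0.061 to 0.21 for Ncam2, -0.032 to 0.13 for Nfia, -0.11 to 0.020 for Nfib and -0.081 to 0.065 for Nfix. At 10 weeks it ranged from -0.29 to 0.044 for Ncam2 and -0.0018 to 0.30 for Nfia, at 5 or 30 weeks from -0.42 to 0.027 for Nqo1 and -0.18 to 0.044 for Acsm4, and over all mice from -0.12 to 0.015 for Acsm4. Nqo1 to Ncam2 ranged from -0.073 to 0.80 at 8 weeks and -0.57 to -0.15 at 5 or 30 weeks, and Acsm4 to Ncam2 from -0.34 to 0.55 at 8 weeks and -0.46 to 0.052 at 10 weeks. Class I ranged from -0.14 to 0.19 at 5 or 30 weeks and -0.043 to 0.13 over all mice, and the trace amine-associated receptors from -0.17 to 0.028 at 5 or 30 weeks. The r of Ncam2 with Nfia ranged from -0.027 to 0.33. Of the 15 pairs, 6 passed with library totals, 4 in the 12 mice and 3 to 12 with 1 library left out. The interaction alternatives and the last 2 of these were chosen after seeing the data.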

Other observations

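Among the cell type markers compared with the zone genes within groups, the summed macrophage markers (6 genes, C1qa, C1qb and C1qc among them) ran opposite to both dorsal markers. For Acsm4 r was -0.76 (adjusted permutation p = 0.00605, rho = -0.75 with an adjusted permutation p of 0.0109) and for Nqo1 -0.65 (adjusted permutation p = 0.00702, rho = -0.63 with an adjusted permutation p of 0.0382). In the strata these were -0.91 and -0.88 at 8 weeks, 0.085 and 0.20 at 10 weeks, and -0.75 and -0.68 at 5 or 30 weeks. The sign was thus not negative at 10 weeks, a difference between strata that was not tested. Without the 2 libraries farthest on the dorsal marker r was -0.64 and -0.62, and without iRhom2-/- library 10 both still passed (-0.75 and -0.69, adjusted permutation p = 0.0236 and p = 0.0472).

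The horizontal basal cell markers rose with Nfix (r = 0.71, adjusted permutation p = 0.0215, rho = 0.59 with an adjusted permutation p of 0.0817), with 0.45, -0.90 and 0.78 in the strata and 0.74 without the 2 farthest libraries. The immature OSN markers fell as Nfix and Ncam2 rose (r = -0.68 and -0.46, adjusted permutation p = 0.0454 for each, rho = -0.50 and -0.46 with an adjusted permutation p of 0.178 and 0.096), and r was -0.59 and -0.52 without the 2 farthest libraries. In the strata these were 0.72, 0.30 and -0.76 for Nfix and 0.35, -0.53 and -0.77 for Ncam2. The sign was thus not the same in all strata, a difference that was not tested. In the 12 mice of 8 and 10 weeks alone r was 0.51 for Nfix and -0.19 for Ncam2 (adjusted permutation p = 0.382 and p = 0.750). Bowman gland markers rose with Nfib (r = 0.56, adjusted permutation p = 0.0378, rho = 0.61 with an adjusted permutation p of 0.0372), with 0.095, 0.71 and 0.68 in the strata and 0.54 without the 2 farthest libraries. Without iRhom2-/- library 10 these 4 relations did not pass.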
